A study of Mus musculus with 12 samples.

Results

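Immediate early genes are transcribed within minutes of a stimulus, without new protein synthesis, from promoters that MAP kinases and calcium or cAMP signalling switch on through factors already present in the cell. Most encode transcription factors or regulators of signalling and mRNA decay, and many of their transcripts carry AU-rich elements in the 3′ untranslated region (UTR) and are degraded quickly. In the kidney they are known as early markers of tubular injury and of inflammatory signalling. The set described here was a list of 10 such genes, found by symbol through their Ensembl identifiers among 47719 genes of the expression table. The list has 4 AP-1 subunits (Fos, Fosb, Jun, Junb), the bZIP factor Atf3, the zinc finger factor Egr1, the bHLH factor Myc, and Ier2, Ier3 and Btg2. Ier3 and Btg2 are not DNA-binding transcription factors, so the set is called immediate early genes here. Of the 10 genes, 9 passed the expression filter (1 FPKM in 3 or more of 12 libraries) and were tested. Fosb did not.

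Kidney cortex RNA of male mice of the strain C57BL6/J, listed at 8 weeks of age, was sequenced in 4 groups, each with 3 libraries. Whether that age applies to the start of the diet or to sacrifice is not resolved here. EtOH4hLPS mice had 6 weeks of liquid Lieber-DeCarli diet whose ethanol content was stepped up to 6%, and then 10 mg/kg lipopolysaccharide (LPS, the bacterial outer membrane component that TLR4 senses) by intraperitoneal injection 4 hours before sacrifice. EtOH mice had the same ethanol diet with saline in place of LPS. PF4hLPS mice were pair-fed an isocaloric diet in which maltose-dextrin replaced the ethanol, and received the same LPS injection. PF mice were pair-fed and received saline. The 4 groups share strain, sex and liquid diet, and there was 1 time after injection, so no course over time can be read. The labels do not say that each library came from its own mouse, so p-values measure only the spread between these libraries.

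Values are deposited FPKM (fragment counts scaled to transcript length and to library size). Their totals were 1005219 to 1935824 per library, and the depth in fragments is unknown. Depth relative to PF library 1, read from the steps between low values, was 0.67 to 0.76 in EtOH4hLPS, 0.72 to 0.94 in EtOH, 0.49 to 0.74 in PF4hLPS and 0.99 to 1.2 in PF. The 6 proximal tubule markers other than Kap summed to 1176 FPKM or more in every library, whereas all 5 adrenal and all 4 B cell markers stayed below 1 FPKM. Adipose markers were uneven. PF library 2 had 4.62 FPKM of Adipoq, 1.09 FPKM of Cidec and 0.921 FPKM of Plin1, and EtOH library 2 had 1.04 FPKM of Plin1. The part of adipose tissue in the levels of the set was not tested. EtOH4hLPS library 1, PF4hLPS library 2 and PF library 1 had low values for genes of high GC content, with slopes of -0.33, -0.45 and -0.27 (log2 units for each 10% of GC), where the remaining 9 libraries lay between -0.08 and 0.23. EtOH4hLPS library 1 was the lowest of its group for 8 of the 10 immediate early genes, and PF4hLPS library 2 for 7 of 10. EtOH4hLPS library 3, EtOH library 2, PF4hLPS library 1 and PF library 2 were each the highest of their group for 6 of 10. Median transcript GC was 55.2% in the set and 49.5% in tested protein-coding genes. Results are therefore also given without the 3 libraries with steep GC slopes where that changes a call.

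The immediate early genes were compact. Their genomic spans had a median of 4093 bases against 25060 bases over 11674 tested protein-coding genes, and a median of 2 exons against 9. Only Atf3, with 47744 bases on chromosome 1 in GENCODE M21, exceeded the median span. The 250 bases before its RefSeq start (chr1:191183334-191183583) lie inside that span, so its length depends on the annotation. The pentamer ATTTA, the core of AU-rich elements, occurred at a median of 2.89 per kb of 3′ UTR in the set and 1.3 per kb in tested protein-coding genes. It was present at least once in 9 of 10 of the set, against 65.8% of tested protein-coding genes, and Ier2 had none. The longer element TTATTTATT was found in Fos alone of the 10, against 6.9% of tested protein-coding genes. The 30-base windows below show the ATTTA copies, in capitals, in the 3′ UTRs of the members with the most copies per kb and of Jun and Btg2, which were among the most abundant members after LPS. They were read from GENCODE M21 transcripts (GRCm38) and are given 5′ to 3′ on the gene's strand.
Ier3, chr17:35822485-35822514, plus strand: taattaatATTTAtgtATTTAtgtatatcc
Fos, chr12:85477101-85477130, plus strand: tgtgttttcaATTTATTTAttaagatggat
Myc, chr15:61990135-61990164, plus strand: taacagatttgtATTTAattgtttttttaa
Jun, chr4:95049207-95049236, minus strand: atcATTTAtaatcataggaaagATTTAgta
Btg2, chr1:134076017-134076046, minus strand: aATTTAtttgtagatgtgtgcaatATTTAc

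Promoter windows of 250 bases before the RefSeq start (GRCm38.p6) were available for 7 of the 10, and Egr1, Ier2 and Myc had none here. The windows were searched on both strands for the cAMP response element (CRE) TGACGTCA, its core TGACG (every CRE holds it on both strands), the AP-1 site TGANTCA, the STAT site TTCNNNGAA, the CArG box of serum response factor and the kappa-B site. The core TGACG was found in 5 of the 7 windows, against 17.8% of 32851 RefSeq windows. The full CRE was in 1 of the 7, Btg2, at 166 to 159 bases before the start, against 1.5% of windows. A kappa-B match was in 3 of the 7, Fos, Fosb and Ier3, against 3.9% of windows. AP-1, STAT and CArG matches were in none of the 7, against 6.7%, 7.0% and 1.5% of windows, which says only that these letters are not in this stretch. A match is a description of sequence and not evidence of binding. The 3 windows below are shown because Fos and Btg2 had the lowest p-values of the set between the LPS groups of the 2 diets and Junb is another AP-1 subunit, with TGACG, the CRE and the kappa-B match in capitals.
Fos, chr12:85473640-85473889, plus strand: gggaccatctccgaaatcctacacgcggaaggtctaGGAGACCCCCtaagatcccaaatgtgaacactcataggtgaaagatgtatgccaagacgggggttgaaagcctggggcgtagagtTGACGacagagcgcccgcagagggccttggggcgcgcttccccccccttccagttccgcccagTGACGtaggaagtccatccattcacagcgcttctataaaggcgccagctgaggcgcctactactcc
Btg2, chr1:134079156-134079405, minus strand: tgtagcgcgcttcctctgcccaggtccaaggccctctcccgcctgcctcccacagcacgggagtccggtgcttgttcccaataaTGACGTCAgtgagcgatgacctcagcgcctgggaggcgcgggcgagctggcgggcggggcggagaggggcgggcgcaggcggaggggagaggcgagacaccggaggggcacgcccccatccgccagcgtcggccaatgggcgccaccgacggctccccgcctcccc
Junb, chr8:84978749-84978998, minus strand: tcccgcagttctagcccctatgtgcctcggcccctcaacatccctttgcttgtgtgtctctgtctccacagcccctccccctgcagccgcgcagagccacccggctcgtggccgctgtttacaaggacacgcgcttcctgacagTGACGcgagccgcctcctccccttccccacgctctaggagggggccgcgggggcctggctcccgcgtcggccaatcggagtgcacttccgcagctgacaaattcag

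LPS raised most of the immediate early genes in both diets. In ethanol-fed mice all 9 tested genes rose, and in pair-fed mice 7 of 9 rose, with none lower. Over all 14109 genes tested, 10.7% rose with LPS in ethanol-fed and 11.3% in pair-fed mice (limma, adjusted p under 0.05). The set's median log2 fold change was 2.22 in EtOH4hLPS against EtOH and 1.66 in PF4hLPS against PF, beside 0.02 and -0.01 over all genes tested. Every EtOH4hLPS library was above every EtOH library for 8 of 9 genes, against 18.8% of all genes, and every PF4hLPS library was above every PF library for 8 of 9, against 18.5%. Fold changes below are on the log2(FPKM + 1) scale, which understates those of genes at low FPKM, with their standard error, and every adjusted p is limma's, Benjamini-Hochberg adjusted over all genes tested.

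**Figure D1:**
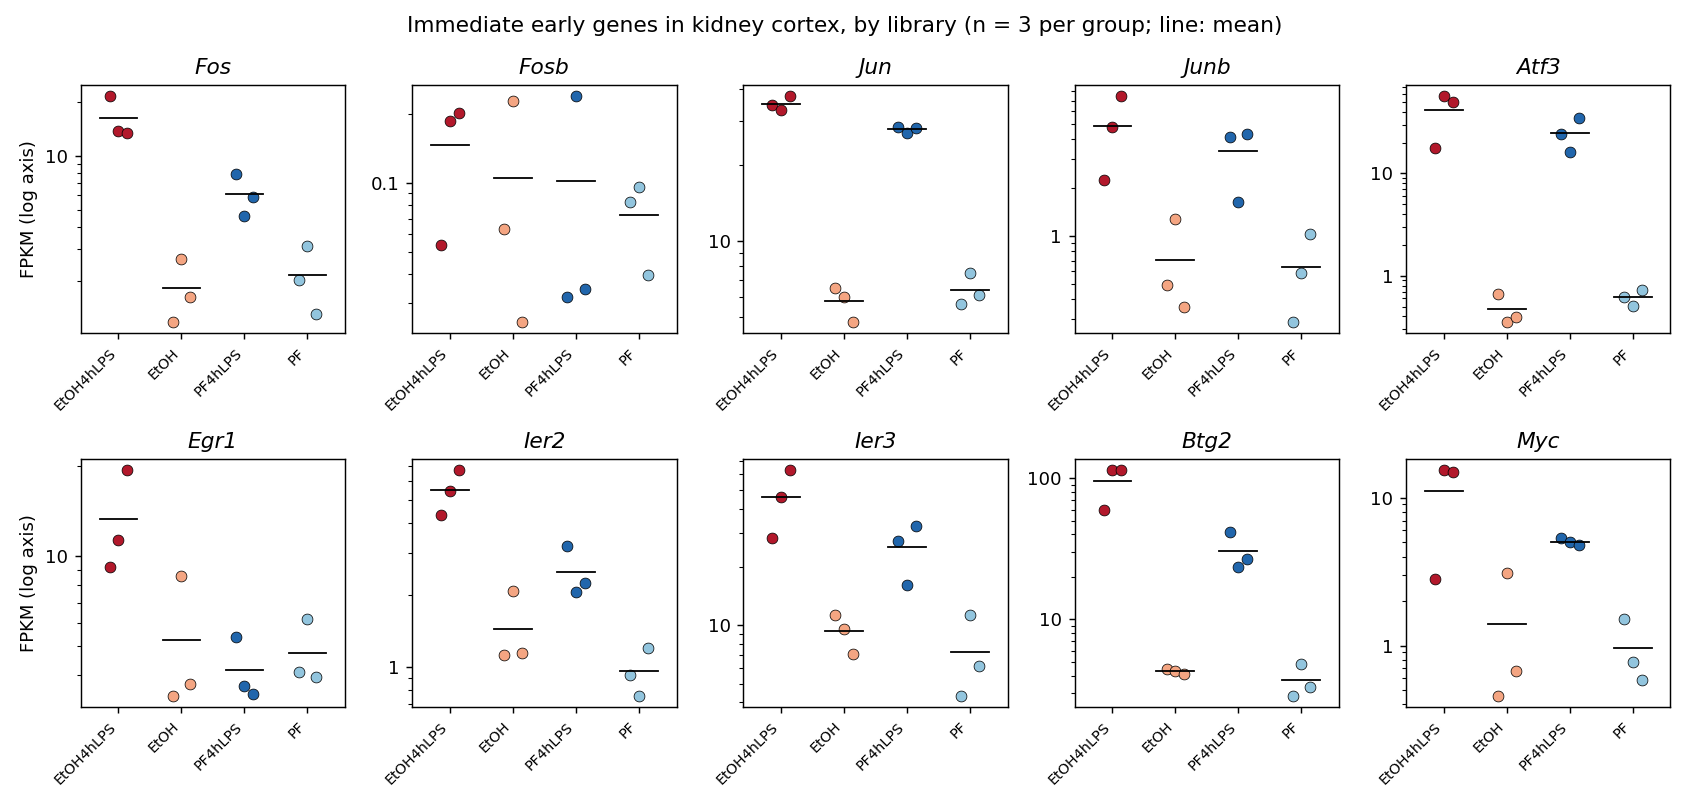
FPKM of the 10 immediate early genes in each library (points; log axis with its own range per gene) and group means (lines), 3 libraries per group. Points of both LPS groups lie above their saline groups for Atf3, Fos, Jun, Junb, Ier2, Ier3 and Btg2, while Fosb stays at 0.239 FPKM or below in all 12 libraries.

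The AP-1 subunits Fos and Jun form the classical heterodimer that binds TGANTCA sites. Fos (ENSMUSG00000021250, chr12:85473890-85477273, GRCm38) had 21.5, 13.7 and 13.5 FPKM in EtOH4hLPS libraries, against 1.18, 2.65 and 1.62 FPKM in EtOH. It had 7.95, 4.60 and 5.86 FPKM in PF4hLPS libraries, against 2.03, 3.12 and 1.31 FPKM in PF. All 3 EtOH4hLPS libraries stood above all others, the PF4hLPS libraries came next, and the 2 saline groups overlapped. Fos rose by 2.61 ± 0.28 with LPS in ethanol-fed mice (limma adjusted p = 4.56e-05), a ratio of mean FPKM of 8.92, and by 1.19 ± 0.28 in pair-fed mice (limma adjusted p = 0.0122), a ratio of 2.85. The pair-fed call was lost without PF library 3 (limma adjusted p = 0.0601).

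Jun (ENSMUSG00000052684, chr4:95049034-95052222) was the member with the least spread between libraries after LPS. It had 34.7, 33.2 and 37.6 FPKM in EtOH4hLPS libraries, against 6.53, 6.02 and 4.78 FPKM in EtOH. PF4hLPS libraries had 28.4, 26.9 and 28.1 FPKM, against 5.63, 7.51 and 6.09 FPKM in PF. The coefficient of variation was 6.37% in EtOH4hLPS and 2.87% in PF4hLPS, and no LPS library overlapped a saline library. Jun rose by 2.42 ± 0.15 in ethanol-fed mice (limma adjusted p = 4.16e-07) and by 1.97 ± 0.15 in pair-fed mice (limma adjusted p = 2.85e-06), with ratios of means of 6.09 and 4.34. The antisense gene Junos overlaps Jun and reached at most 1.55 FPKM in any library.

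Junb (ENSMUSG00000052837, chr8:84974484-84978718), a Jun relative that often restrains Jun activity, averaged 4.83 FPKM in EtOH4hLPS, where Jun averaged 35.2 FPKM. Its values were 2.24, 4.80 and 7.46 FPKM in EtOH4hLPS libraries, against 0.493, 1.27 and 0.358 FPKM in EtOH. In PF4hLPS libraries they were 4.18, 1.62 and 4.34 FPKM, against 0.289, 0.586 and 1.03 FPKM in PF. The LPS libraries of each diet stayed above the saline libraries of that diet, and the 2 LPS groups overlapped. Junb rose by 1.70 ± 0.37 in ethanol-fed mice (limma adjusted p = 0.00796) and by 1.38 ± 0.37 in pair-fed mice (limma adjusted p = 0.0247). The pair-fed call ended without PF4hLPS library 1 or 3 or PF library 1 or 2, with limma adjusted p between 0.0716 and 0.0828. The gene overlaps Prdx2 on the opposite strand, which reached 323 FPKM, and the strand setting of the counting is not given, so shared fragments cannot be told apart.

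Fosb (ENSMUSG00000003545, chr7:19302696-19310051), a Fos relative, was listed at low values throughout. It had 0.0534, 0.186 and 0.201 FPKM in EtOH4hLPS libraries, against 0.0627, 0.227 and 0.0248 FPKM in EtOH. PF4hLPS libraries had 0.0319, 0.239 and 0.0345 FPKM, against 0.0823, 0.0958 and 0.0396 FPKM in PF. All 4 groups overlapped, and no test was made.

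Atf3 (ENSMUSG00000026628, chr1:191170296-191218039), a stress-induced bZIP factor that dimerizes with Jun proteins and is known to restrain TLR-driven cytokine genes, had the highest fold change of the set. It had 17.8, 56.8 and 50.5 FPKM in EtOH4hLPS libraries, against 0.671, 0.354 and 0.396 FPKM in EtOH. PF4hLPS libraries had 24.3, 16.3 and 34.6 FPKM, against 0.623, 0.506 and 0.726 FPKM in PF. Every saline library was below 1 FPKM and every LPS library was at 16.3 FPKM or more, while the 2 LPS groups overlapped, EtOH4hLPS library 1 being the low one. A small RNA gene on the opposite strand within Atf3, Gm24748, was listed at up to 24.6 FPKM. The ratio of mean FPKM was 88 in ethanol-fed and 40.6 in pair-fed mice. The log2 fold change was 4.70 ± 0.38 in ethanol-fed mice (limma adjusted p = 3.24e-06), larger than that of 99.6% of genes tested, and 3.95 ± 0.38 in pair-fed mice (limma adjusted p = 1.52e-05).

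Egr1 (ENSMUSG00000038418), a zinc finger factor that responds to growth factor and stress signalling through ERK, was the one tested gene whose mean was not higher with LPS in pair-fed mice. It had 9.21, 11.4 and 19.5 FPKM in EtOH4hLPS libraries, against 3.42, 8.61 and 3.74 FPKM in EtOH. PF4hLPS libraries had 5.37, 3.68 and 3.46 FPKM, against 4.11, 6.19 and 3.96 FPKM in PF. The 3 EtOH4hLPS libraries were above all other 9, although EtOH library 2 came close to EtOH4hLPS library 1, and the other 3 groups overlapped. Egr1 rose by 1.23 ± 0.33 in ethanol-fed mice (limma adjusted p = 0.0241). Its fold change in pair-fed mice was -0.15 ± 0.33 (limma adjusted p = 0.798, 95% interval -0.88 to 0.57). The ethanol-diet call ended without EtOH4hLPS library 2 or 3 or EtOH library 1 or 3, with limma adjusted p between 0.0524 and 0.104. It also ended with equal total FPKM, with the protein-coding total, with no filter and with only the libraries compared (limma adjusted p = 0.0627 to 0.0923).

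Myc (ENSMUSG00000022346, chr15:61985391-61990374), a bHLH factor that drives growth and ribosome genes with its partner Max, was uneven in ethanol-fed mice. It had 2.84, 15.4 and 14.8 FPKM in EtOH4hLPS libraries, against 0.458, 3.09 and 0.670 FPKM in EtOH, so EtOH4hLPS library 1 fell below EtOH library 2. PF4hLPS libraries had 5.32, 5.04 and 4.80 FPKM, against 1.51, 0.774 and 0.589 FPKM in PF, with no overlap. Myc rose by 2.22 ± 0.53 in ethanol-fed mice (limma adjusted p = 0.0142), and its fold change of 1.66 ± 0.53 in pair-fed mice missed the threshold (limma adjusted p = 0.0531). Without EtOH4hLPS library 1 in the shared estimate of spread, the same pair-fed fold change passed it (limma adjusted p = 0.00555), and without the 3 libraries with steep GC slopes it was 1.85 ± 0.42 (limma adjusted p = 0.0183). The ethanol-diet call ended without EtOH4hLPS library 2 or 3 or EtOH library 1 or 3, with limma adjusted p between 0.055 and 0.0624. Fitted to only the 6 libraries compared, Myc was not called in ethanol-fed mice (limma adjusted p = 0.115) and was called in pair-fed mice (limma adjusted p = 0.00274).

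Ier2 (ENSMUSG00000053560, chr8:84661331-84662852) encodes a nuclear protein with a part in transcriptional regulation and lies 313 kb from Junb. Its values were 4.35, 5.49 and 6.71 FPKM in EtOH4hLPS libraries, against 1.13, 2.08 and 1.14 FPKM in EtOH. They were 3.21, 2.07 and 2.26 FPKM in PF4hLPS libraries, against 0.927, 0.757 and 1.20 FPKM in PF. The EtOH4hLPS libraries lay above all others, and PF4hLPS lay above PF. Ier2 rose by 1.42 ± 0.21 in ethanol-fed mice (limma adjusted p = 0.000536) and by 0.83 ± 0.21 in pair-fed mice (limma adjusted p = 0.0161). The pair-fed call ended without PF4hLPS library 1 (limma adjusted p = 0.0520) or PF library 2 (limma adjusted p = 0.0753).

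Ier3 (ENSMUSG00000003541, chr17:35821684-35822923), also called IEX-1, affects cell survival and ERK signalling and has the most ATTTA copies per kb of 3′ UTR in the set. It had 28.0, 45.7 and 63.2 FPKM in EtOH4hLPS libraries, against 11.3, 9.56 and 7.08 FPKM in EtOH. PF4hLPS libraries had 27.1, 16.2 and 32.5 FPKM, against 4.33, 11.3 and 6.17 FPKM in PF. Both LPS groups were clear of their saline groups and overlapped each other. Ier3 rose by 2.13 ± 0.37 in ethanol-fed mice (limma adjusted p = 0.00168) and by 1.70 ± 0.37 in pair-fed mice (limma adjusted p = 0.00728).

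Btg2 (ENSMUSG00000020423, chr1:134075170-134079120), an anti-proliferative p53 target that recruits the CCR4-NOT deadenylase to mRNA, was the most abundant member in EtOH4hLPS. It had 59.1, 114 and 113 FPKM in EtOH4hLPS libraries, against 4.46, 4.34 and 4.12 FPKM in EtOH. PF4hLPS libraries had 41.7, 23.4 and 26.9 FPKM, against 2.89, 4.88 and 3.35 FPKM in PF. The 3 EtOH4hLPS libraries were above the 3 PF4hLPS libraries, which in turn were above all saline libraries. Btg2 rose by 4.13 ± 0.28 in ethanol-fed mice (limma adjusted p = 7.35e-07) and by 2.73 ± 0.28 in pair-fed mice (limma adjusted p = 2.94e-05), with ratios of means of 22.2 and 8.27.

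**Figure D2:**
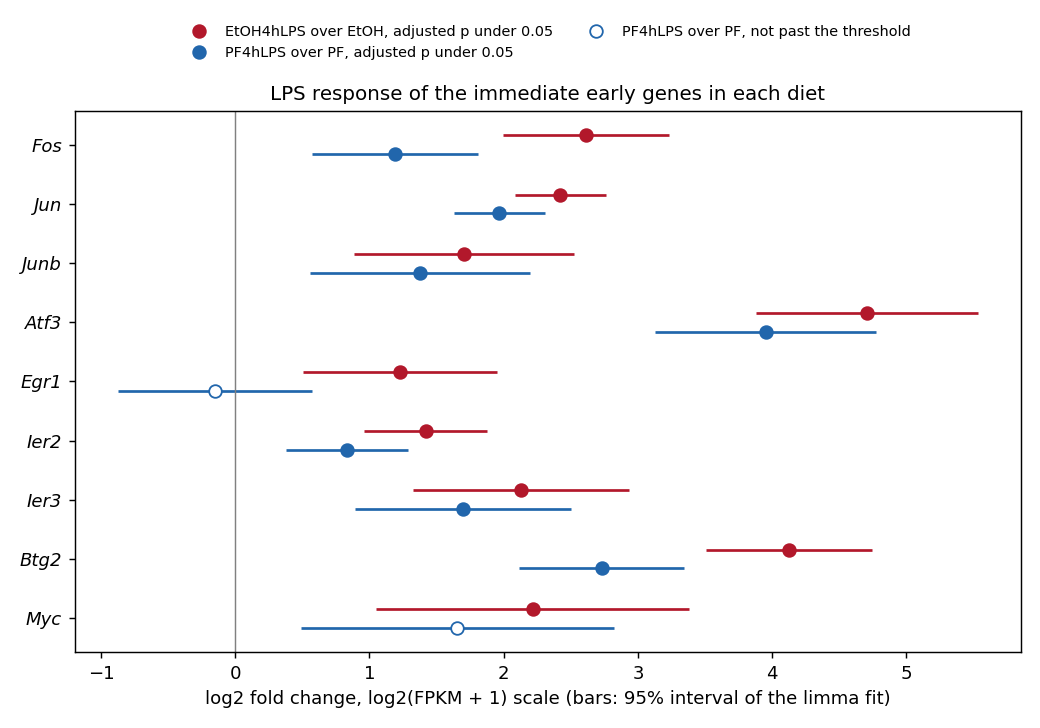
Log2 fold change with LPS of the 9 tested genes in ethanol-fed (EtOH4hLPS over EtOH) and pair-fed mice (PF4hLPS over PF), on the log2(FPKM + 1) scale with the 95% interval of the limma fit; filled points have adjusted p under 0.05. All 9 ethanol-diet points are filled and lie at 1.23 to 4.70, and the 2 open pair-fed points are Egr1 at -0.15 and Myc at 1.66.

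The plot of LPS fold changes places the ethanol-diet point of each of the 9 genes to the right of that gene's pair-fed point. Only Egr1 has a pair-fed interval that includes 0. The LPS calls were made on values as the authors scaled them. When libraries were set to equal total FPKM, the median fold change over all genes shifted by -0.28 with LPS in ethanol-fed mice and by -0.40 in pair-fed mice. That left 8 ethanol-diet calls (all but Egr1) and 3 pair-fed calls (Atf3, Jun and Btg2) among the members, and no fold change of a called gene turned negative under any scaling tried. With equal total FPKM the split over all genes was 974 higher and 1772 lower in ethanol-fed mice (1504 and 902 as deposited), and 858 higher and 2565 lower in pair-fed mice (1589 and 972 as deposited). Small RNA genes, which enter that total, made up 31.7% (EtOH4hLPS library 1) to 44.9% (PF4hLPS library 3) of it. With each library scaled to its protein-coding total, 8 members (all but Egr1) were called in ethanol-fed mice, with 1023 genes higher and 2298 lower over all genes, and 5 members in pair-fed mice, with 1041 higher and 2320 lower. Without the 3 libraries with steep GC slopes, 9 of 9 members were called in ethanol-fed mice, with 1806 genes higher and 1419 lower over all genes, and 8 of 9 in pair-fed mice, with 1417 higher and 798 lower.

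Markers of other cell types moved with LPS. The summed level of 10 neutrophil markers was 172 to 265 FPKM in EtOH4hLPS, against 4.04 to 7.74 FPKM in EtOH, and 191 to 427 FPKM in PF4hLPS, against 4.43 to 7.40 FPKM in PF. Of the 7 tested neutrophil markers, 5 rose in ethanol-fed and 6 in pair-fed mice, 2 of the 10 stayed below 1 FPKM in every library and none was at 0 in all. The sum of 7 endothelial markers was 56.3 to 76.2 FPKM in EtOH4hLPS, against 140 to 153 FPKM in EtOH, and 46.4 to 66.1 FPKM in PF4hLPS, against 117 to 152 FPKM in PF, and 5 of 7 fell in each diet. The endothelial cadherin gene Cdh5 rose in both, by 1.26 ± 0.23 in ethanol-fed mice (limma adjusted p = 0.00257) and by 1.09 ± 0.23 in pair-fed mice (limma adjusted p = 0.00651). The sum of 4 podocyte markers was 62.59 to 80.11 FPKM in EtOH4hLPS, against 82.43 to 88.81 FPKM in EtOH. In PF4hLPS that sum was 50.48 to 60.4 FPKM, against 73.17 to 81 FPKM in PF. Limma called 0 of the 4 lower in ethanol-fed and 1 in pair-fed mice. For 5 collecting duct markers the sum was 38.35 to 51.68 FPKM in EtOH4hLPS, overlapping 49.08 to 64.48 FPKM in EtOH. It was 24.57 to 34.67 FPKM in PF4hLPS, against 43.83 to 63.8 FPKM in PF. Limma called 1 of the 5 lower in ethanol-fed and 2 in pair-fed mice. The part of these cell types in the immediate early gene levels was not tested. In tissue RNA, more cells of a type and more RNA per cell cannot be told apart.

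The ethanol diet alone left no detectable difference in the immediate early genes. In EtOH against PF, limma called 0 of 9, beside 0.0284% of all genes. An unadjusted limma p under 0.05 was found for 0 of 9, where 521 of 14109 genes had one. Fold changes lay between -0.16 for Fos and 0.38 for Ier3. The 2 groups overlapped for all 9. In the 1 direction counted over all genes, every EtOH library was above every PF library for 0 of 9, against 5.63% of all genes. The 95% intervals give the sizes of difference that these libraries allow. They were -0.47 to 0.21 for Jun and -0.42 to 0.81 for Btg2, and the widest, for Myc, was -1.01 to 1.33.

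After LPS the mean of each tested immediate early gene was higher in ethanol-fed than in pair-fed mice, but none passed the threshold. In EtOH4hLPS against PF4hLPS, limma called 0 of 9, beside 0.0992% of all genes. All 9 fold changes were above 0, with a median of 0.81 beside 0.00 over all genes tested, and 5 of 9 had an unadjusted p under 0.05 with EtOH4hLPS higher, where 728 of 14109 genes did (0.0354% were called higher). Every EtOH4hLPS library was above every PF4hLPS library for Fos, Jun, Egr1, Ier2 and Btg2, 5 of 9, against 5.34% of all genes. Among the related genes described below the median fold change was 0.21. The 9 genes were read from the same libraries and were chosen with earlier results of these data known. Their counts are therefore not those of 9 separate observations.

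Btg2 came closest, with a fold change of 1.59 ± 0.28 and a ratio of means of 3.12 (unadjusted p = 0.000123, limma adjusted p = 0.0754). It passed the threshold without EtOH4hLPS library 1, at 1.90 ± 0.25 (limma adjusted p = 0.0233), without PF4hLPS library 1, at 1.83 ± 0.29 (limma adjusted p = 0.0428), and without the 3 libraries with steep GC slopes, at 1.74 ± 0.23 (limma adjusted p = 0.0283). Egr1 differed by 1.43 ± 0.33 (limma adjusted p = 0.127), Fos by 1.26 ± 0.28 (limma adjusted p = 0.120) and Ier2 by 0.89 ± 0.21 (limma adjusted p = 0.128). The ratios of mean FPKM were 3.20 for Egr1, 2.64 for Fos and 2.19 for Ier2. Ier3 differed by 0.81 ± 0.37 (limma adjusted p = 0.457). The interval of Jun was narrow, at -0.01 to 0.67 around 0.33, so the data limit a diet difference in Jun more tightly than in the other 8 genes. Atf3, Junb and Myc, whose LPS groups overlapped, had fold changes of 0.61 ± 0.38, 0.38 ± 0.37 and 0.72 ± 0.53 (limma adjusted p = 0.579 to 0.745).

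**Figure D3:**
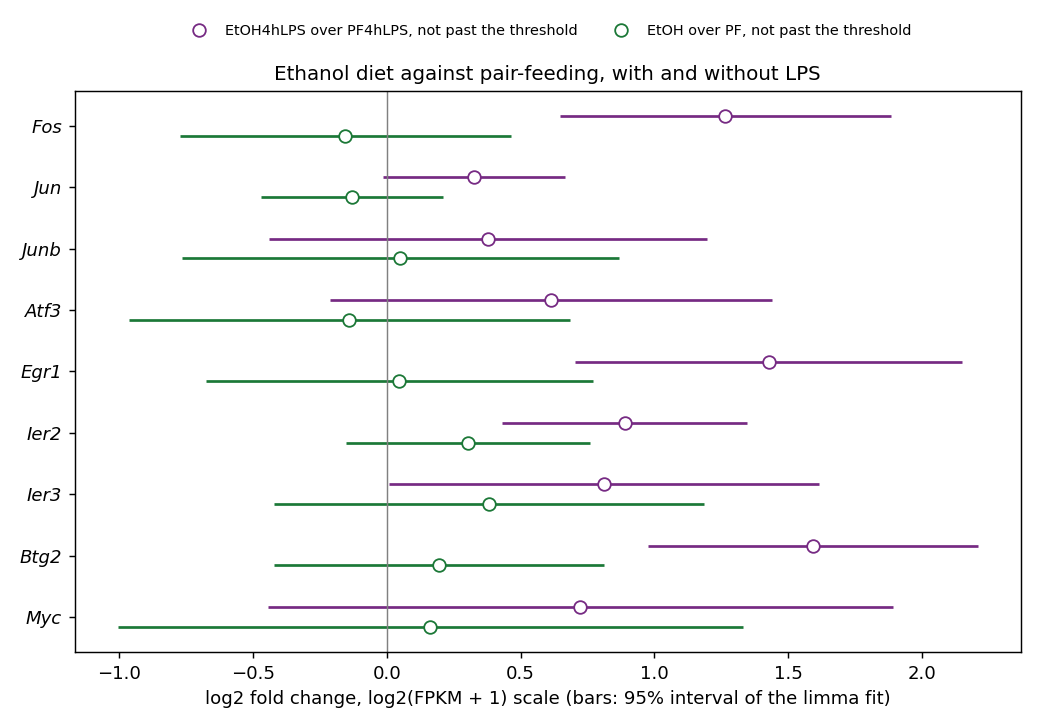
Log2 fold change between diets of the 9 tested genes, after LPS (EtOH4hLPS over PF4hLPS) and without it (EtOH over PF), on the log2(FPKM + 1) scale with the 95% interval of the limma fit; open points have adjusted p of 0.05 or more. No point passed the threshold; after LPS all 9 lie at 0.33 to 1.59, and without LPS all lie at -0.16 to 0.38.

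In the plot of diet differences the LPS points sit to the right of the saline points for each gene. The difference between those points, the interaction of diet and LPS, was above 0 for all 9 genes. None of the 9 was called by limma, beside 0.0284% of all genes. An unadjusted limma p under 0.05 was found for 3 of the 9, where 616 of 14109 genes had one. The 3 were Fos at 1.42 ± 0.40 (limma adjusted p = 0.860), Btg2 at 1.40 ± 0.40 (limma adjusted p = 0.860) and Egr1 at 1.38 ± 0.47 (limma adjusted p = 0.988). The data thus do not show that the LPS response of any member differed between diets once all genes are adjusted for. Averaged over both LPS states, EtOH and EtOH4hLPS against PF and PF4hLPS gave 0 of 9 calls by limma, beside 0.319% of all genes. In that comparison 5 of 9 had an unadjusted limma p under 0.05, where 1334 of 14109 genes did. The highest averaged fold change was 0.89 ± 0.20 for Btg2 (limma adjusted p = 0.113, and 0.0393 without EtOH4hLPS library 1). The comparisons of EtOH4hLPS with EtOH, of EtOH4hLPS with PF4hLPS and the interaction share the EtOH4hLPS libraries. Between the 2 LPS groups, neutrophil marker sums overlapped (172 to 265 FPKM in EtOH4hLPS, 191 to 427 FPKM in PF4hLPS) and 0 of 7 tested neutrophil markers were called. The sum of 5 collecting duct markers was 38.35 to 51.68 FPKM in EtOH4hLPS, against 24.57 to 34.67 FPKM in PF4hLPS. For 4 podocyte markers it was 62.59 to 80.11 FPKM, against 50.48 to 60.4 FPKM. Neither pair of sums overlapped, and limma called 0 of the 5 and 0 of the 4. Sums of all other marker lists overlapped between the 2 LPS groups. The 6 proximal tubule markers other than Kap summed to 1694 to 2050 FPKM in EtOH4hLPS, against 1176 to 1708 FPKM in PF4hLPS. Kap, the most abundant of the 7, ran the other way, with a fold change of -0.64 ± 0.31, and limma called 0 of the 7, while 2 of them, Slc34a1 and Slc5a2, had an unadjusted p under 0.05. The part of these cell types in the diet differences was not tested.

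A list of 118 related genes in 7 groups put the immediate early genes in context, and 104 were tested. With LPS, 63 rose and 4 fell in ethanol-fed mice, and 55 rose and 3 fell in pair-fed mice. Over all 14109 genes tested, 1504 rose and 902 fell in ethanol-fed mice, and 1589 rose and 972 fell in pair-fed mice. None of the 104 related genes was called between the diets, with or without LPS. The lists were taken from textbook knowledge, but with earlier results of these data known. They are described by counts and medians without a test of the list.

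Other AP-1 and bZIP partners followed LPS in most cases, with 7 of 11 tested genes higher in each diet and none lower (median log2 fold change 1.44 in ethanol-fed and 1.42 in pair-fed mice). Maff, a small Maf protein that pairs with bZIP factors, averaged 33.7 ± 14.8 FPKM in EtOH4hLPS, against 0.497 ± 0.242 FPKM in EtOH (SD, n = 3 libraries), and rose by 4.45 ± 0.36 (limma adjusted p = 3.15e-06). It averaged 15.8 ± 6.25 FPKM in PF4hLPS and 0.872 ± 0.345 FPKM in PF. Fosl2, a Fos relative, averaged 17.2 ± 2.37 FPKM in EtOH4hLPS and 1.69 ± 0.225 FPKM in EtOH, and rose in both diets (2.75 and 2.43). Batf, which pairs with Jun proteins in immune cells, rose by 1.88 and 1.99. Atf7 and Atf2, constitutive bZIP factors, did not pass the test in either diet, with fold changes between -0.20 and 0.11.

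Other immediate early transcription factors rose in 12 of 14 tested cases in ethanol-fed mice and 10 of 14 in pair-fed mice, with medians of 1.79 and 1.60. Klf6, a Krüppel-like zinc finger factor, averaged 208 ± 40.0 FPKM in EtOH4hLPS, against 10.1 ± 2.11 FPKM in EtOH, and 155 ± 16.2 FPKM in PF4hLPS, against 8.49 ± 0.646 FPKM in PF. Cebpd, a C/EBP factor of the acute phase response, rose by 3.47 ± 0.20 in ethanol-fed and 4.44 ± 0.20 in pair-fed mice, the reverse order of the diets seen for Fos and Btg2. That difference, an interaction of -0.98 ± 0.29, did not pass the threshold (limma adjusted p = 0.887). Cebpb rose by 3.58 and 4.00. Egr2, the paralogue of Egr1, rose in both diets (1.10 and 1.57, limma adjusted p = 0.018 and 0.0022), whereas Egr1 was called in ethanol-fed mice alone, and the interaction for Egr1 was not called.

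Secreted and signalling immediate early genes had medians of 2.19 in ethanol-fed and 1.88 in pair-fed mice, and 19 and 17 of 21 rose. Plk3, a stress-responsive kinase, and Ptgs2, the inducible cyclooxygenase, rose in both diets by 4.19 and 3.88, and by 3.20 and 2.91, in the order ethanol-fed, pair-fed.

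Among MAP kinase phosphatases and feedback inhibitors, 8 of 13 rose in each diet, among them Dusp8 (4.87 ± 2.79 FPKM in EtOH4hLPS, against 0.239 ± 0.0476 FPKM in EtOH) and Dusp5 (fold changes of 1.80 and 0.98), while the ERK phosphatase Dusp6 fell in ethanol-fed mice (-0.94 ± 0.23, limma adjusted p = 0.0152). Among mRNA decay factors and BTG/TOB relatives, 5 of 12 rose in each diet. Zfp36l1, which binds AU-rich elements, averaged 139 ± 44.5 FPKM in EtOH4hLPS, against 11.3 ± 3.87 FPKM in EtOH, and rose by 3.51. Its relative Zfp36 (tristetraprolin) rose by 2.64 and 1.83, and Btg1, the closest relative of Btg2, by 1.77 and 1.61. Zfp36l2, of the same family, fell in ethanol-fed mice (-0.82 ± 0.24, limma adjusted p = 0.0342).

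Upstream kinases and factors had medians near 0, at 0.13 and 0.01. Of 23 tested, 9 rose and 1 fell in ethanol-fed mice, and 6 rose and 2 fell in pair-fed mice. Map3k8 (Tpl2), the kinase that links TLR4 to ERK, rose by 3.21 and 2.77, and the CREB relative Crem by 2.60 and 2.99. Elk3, an ETS repressor that partners serum response factor, averaged 1.02 ± 0.162 FPKM in EtOH4hLPS, against 3.98 ± 0.351 FPKM in EtOH, and fell in both diets (-1.31 and -1.36). Mapk3 (ERK1) fell in pair-fed mice (-0.79 ± 0.20, limma adjusted p = 0.0190). Among 10 tested Myc partners and antagonists, Mxd1, which competes with Myc for Max, averaged 15.1 ± 5.04 FPKM in PF4hLPS, against 2.63 ± 0.336 FPKM in PF, and rose in both diets. Max rose by 0.50 and 1.13, Mlxip rose in ethanol-fed mice (0.75) and did not pass the test in pair-fed mice (0.58), and Mxd4 fell in both (-0.97 and -1.11).

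**Figure D4:**
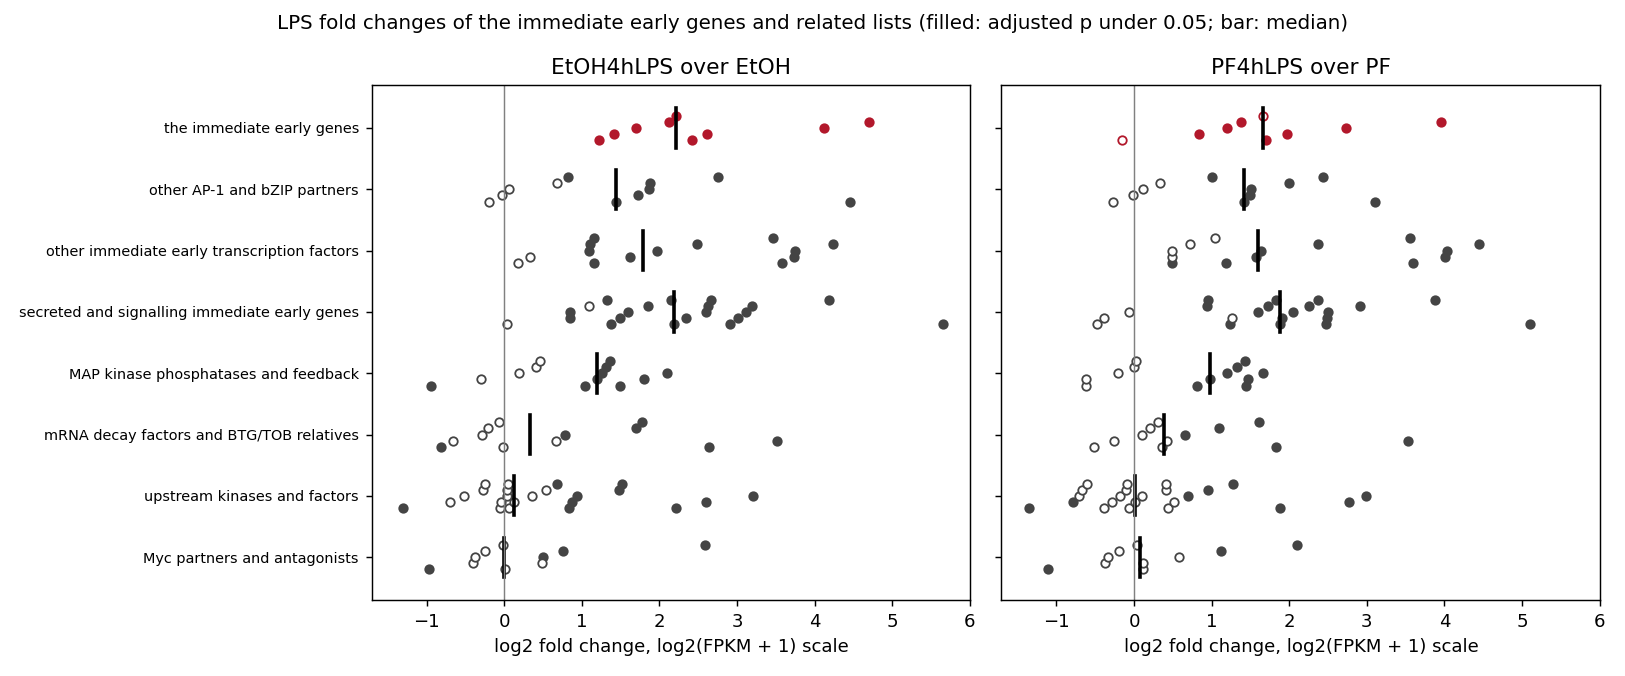
Log2 fold change with LPS of the immediate early genes (red) and the 7 lists of related genes (black), each point 1 tested gene, bars the list median, filled points with adjusted p under 0.05, in ethanol-fed (left) and pair-fed mice (right). The immediate early genes have medians of 2.22 and 1.66, and the upstream kinases and the Myc partners lie around 0.

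The plot of related lists shows that the lists of immediate early genes and AP-1 partners lie mostly to the right of 0, whereas the upstream kinases and Myc partners scatter on both sides. To find genes with the most similar pattern, each gene was centred on its mean log2(FPKM + 1) over the 12 libraries, and the mean absolute difference from each immediate early gene was taken over 8201 genes with a group mean of at least 5 FPKM. The points of this measure share 12 libraries, their depth and the LPS contrast, and it is given as a description. Atf3 was nearest to Irf1, an interferon regulatory factor, at 0.17 log2 units (median over all candidates 2.13). Irf1 averaged 209 FPKM in EtOH4hLPS, 4.62 in EtOH, 130 in PF4hLPS and 5.35 in PF. Cd14, the LPS co-receptor, lay at 0.24.

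Fos was nearest to Zfp36 at 0.28, Usp53 at 0.29 and Apold1, an endothelial early response gene, at 0.33 (median 0.98). Jun was nearest to the phosphodiesterase gene Pde4b at 0.15, and Junb to the TNF receptor gene Tnfrsf1a at 0.17. Egr1 was nearest to Ccn1, a matricellular immediate early gene, at 0.31 (median 0.62), followed by the receptors Mertk and Fgfr1 at 0.35. Ccn1 averaged 30.1 FPKM in EtOH4hLPS, 12.7 in EtOH, 7.35 in PF4hLPS and 10.3 in PF. Its difference between EtOH4hLPS and PF4hLPS was 1.80 ± 0.35 (limma adjusted p = 0.0943). Ccn1 was picked for its likeness to Egr1 over these same libraries, so that value is no separate evidence on Egr1. Btg2 was nearest to Selp (P-selectin) at 0.27, Hmox1 (heme oxygenase) at 0.28 and Maff at 0.30 (median 1.69). Hmox1 averaged 177 FPKM in EtOH4hLPS, 6.27 in EtOH, 39.1 in PF4hLPS and 7.01 in PF. Ier2 was nearest to Lix1l at 0.18, Ier3 to Il15ra at 0.24 and Myc to Enc1 at 0.32. Fosb, at its low level, was nearest to genes that varied little, such as Pink1 at 0.07.

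The immediate early genes differed among themselves in the same measure. Atf3 and Btg2 were 0.52 apart, Junb and Ier2 0.32, Junb and Ier3 0.34, and Egr1 and Ier2 0.35. Atf3 and Egr1 were 1.89 apart. The order of group means was EtOH4hLPS, PF4hLPS, EtOH and PF for Junb, Ier2, Ier3, Btg2 and Myc, and EtOH4hLPS, PF4hLPS, PF and EtOH for Atf3, Fos and Jun. EtOH and PF, the neighbours at the low end of these 8 genes, overlapped in each. Egr1 had the order EtOH4hLPS, EtOH, PF and PF4hLPS, with the last 3 overlapping.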

How the data were processed

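Total RNA of 12 kidney cortex libraries was sequenced from stranded, ribosomal RNA depleted libraries, per the labels' protocols. The authors deposited FPKM for 47719 genes; the submitters' processing notes name the build mm10 and Cufflinks 2.2.1 with Cuffnorm, TopHat2 2.0.4 and Cuffdiff 2.1.1. The sources used here give neither the annotation release nor the strand setting. Symbols came from GENCODE M21 (GRCm38), which matched 47305 identifiers, and 414 did not match. The 37 mitochondrial genes were at 0 throughout, so a listed 0 can mean a masked gene.

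The filter (1 FPKM, 3 of 12 libraries) left 14109 genes to test. limma 3.58.1 (R 4.3.3) was fitted to log2(FPKM + 1), with a pseudocount of 1, 1 mean per group and a trended, robust prior. Tests were two-sided, with a threshold of 0.05 on Benjamini-Hochberg adjusted p over all genes tested. An exact permutation test of 3 against 3 libraries cannot go below p = 0.1, so none was used. No count model was run, since FPKM are not counts. The 10 members and the lists were chosen with earlier results of these data known. All 10 members are named. From each list of related genes, at most the 3 highest and 3 lowest fold changes past the threshold in either LPS comparison were named, and likeness added up to 3 genes per member. Some genes that these rules name are not reported here. Egr2, Atf2 and Atf7 were named after their values were seen. The interaction was added to the comparisons that the series design names. Alternatives covered scaling, pseudocount, filter, prior, samples fitted, a replicate block and leaving out libraries.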

Additional observations from a re-analysis of the deposited data

How the results depend on the processing

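Across 25 alternatives (23 planned, 2 added after seeing the data), 1320 values of 54 member fold changes were computed. Of these 1279 kept their side of the threshold, 27 lost it and 14 passed it. Among the 1279, the sign differed from the reported one in 13 values of 6 results, none past the threshold, and no called value changed sign. With only the libraries compared, Myc was not called in ethanol-fed mice (limma adjusted p = 0.115) and was called in pair-fed mice (limma adjusted p = 0.00274), the other way round from the values reported. Egr1 in ethanol-fed mice was not called in that fit (limma adjusted p = 0.0627) or without a filter (limma adjusted p = 0.0772). The cause of the changes below was not tested. With equal total FPKM, 3 immediate early genes were called in PF4hLPS against PF, and over all genes 2 were called in EtOH4hLPS against PF4hLPS and 26 between diets averaged over LPS. Scaling to the protein-coding total gave 2 and 28. In EtOH4hLPS against PF4hLPS, a pseudocount of 0.1 or 0.5 gave 6 genes, limma without trend and robust prior 7, and the replicate block 2, with 9 averaged over LPS. Correlations of same-numbered deviations between groups ran from -0.206 to 0.279. The labels do not say that a replicate number marks a shared cage, pair or day, and these correlations cannot settle it. Without a filter the counts over all genes were 8 in EtOH against PF, 1 in EtOH4hLPS against PF4hLPS, 13 averaged and 7 for the interaction. A 5 FPKM filter tested fewer genes and gave 1623 in PF4hLPS against PF, 1468 in EtOH4hLPS against EtOH, 0, 8, 19 and 0 in the order EtOH against PF, EtOH4hLPS against PF4hLPS, averaged and interaction, and Junb and Ier2 had no value under it. A fit to only the libraries compared gave 16 in EtOH against PF. GC correction gave 51 genes, 1 immediate early gene (Btg2) and 2 related genes in EtOH4hLPS against PF4hLPS, and 98 averaged. Without the 3 libraries with steep GC slopes there were 14 in EtOH against PF, 39 genes, 1 immediate early gene (Btg2) and 2 related genes in EtOH4hLPS against PF4hLPS, and 18 for the interaction.

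Leaving out 1 library at a time gave 5 to 8 immediate early genes in PF4hLPS against PF, 7 to 9 in EtOH4hLPS against EtOH, 0 to 1 in EtOH4hLPS against PF4hLPS, 0 to 1 averaged, and 0 to 0 in EtOH against PF and the interaction. Over all genes the counts were 1612 to 2751 (lowest without PF library 2), 1702 to 2647, 3 to 7 in EtOH against PF, 1 to 43 in EtOH4hLPS against PF4hLPS (lowest without EtOH4hLPS library 2, highest without PF4hLPS library 1), 7 to 76 averaged (lowest without EtOH library 3, highest without PF4hLPS library 1), and 3 to 7 for the interaction. Related genes gave 52 to 61, 55 to 68 and 0 to 2. The fragment depth is unknown, and each group has 3 libraries.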
